A study of Mus musculus with 6 samples.

Results

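The genes described here are the mouse zinc finger protein genes whose symbol is Zfp followed by digits alone. GENCODE M21 annotates 365 protein-coding genes of this form. A gene was kept when its mean level over the 6 libraries was at least 1 FPKM (fragments scaled by exon length and library size), which left 212 genes of 10843 genes tested in all. The other 153 stood below that limit, and 40 of them had no fragment in any library. The level was the value that chose the genes, so their expression as such is a description, and 21 of the 212 passed with a mean below 1 FPKM in one group (8 in the KO-labelled libraries and 13 in WT). Just inside the limit stood Zfp109, Zfp821 and Zfp979 with means of 1.01, 1.02 and 1.03 FPKM, and just outside it Zfp595, Zfp689 and Zfp113 with 0.994, 0.989 and 0.987 FPKM.

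The study compared macrophages labelled 4-1BBL KO, named for the TNF family ligand 4-1BBL, with WT macrophages, and poly(A) RNA of 3 libraries per genotype was sequenced. The cells of both genotypes were bone marrow-derived macrophages of mice, made into growing lines with retroviruses that carry v-raf and v-myc. All 6 libraries came from cells given 10 ng/ml of IL-4 for 24 hours, and untreated cells are not analysed here. The labels do not say whether each genotype was 1 line or several, or whether libraries were separate cultures, so the p-values measure the spread between these libraries, and genotype and line cannot be told apart.

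Most Zfp genes encode proteins with an array of C2H2 zinc fingers, each finger a short loop that holds a zinc ion and contacts a few bases of DNA. Many of them also carry a KRAB box, which binds the corepressor Trim28 (KAP1). Trim28 brings in the histone methyltransferase Setdb1 and heterochromatin proteins, and in this way such proteins silence retroelements and keep imprints. KRAB zinc finger genes have spread by local duplication and sit in arrays on a few chromosomes. Other genes that share the symbol are unlike these and act on RNA, ribosomes, ubiquitin or chromatin.

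Tnfsf9, the gene of 4-1BBL, had 10.7, 10.7 and 11.4 FPKM in the KO-labelled libraries and 14.6, 10.4 and 12.05 FPKM in the WT libraries, and the groups overlapped. Its log2 difference was -0.15 ± 0.11 (SE, limma, Benjamini-Hochberg adjusted p = 0.273), and an exact two-sided permutation test gave p = 0.4, where 0.1 is the smallest it allows. The labels do not give the deleted part of the gene, so its mRNA level does not check the genotype, and the libraries are called KO-labelled throughout. Fragments assigned to genes ranged from 19.1 M to 26.4 M in KO-labelled libraries and from 20.7 M to 22.3 M in WT libraries. All 10 macrophage markers examined reached a mean of 1 FPKM, with 4 higher and 4 lower in KO-labelled libraries. Among these, Adgre1 (F4/80) averaged 268 ± 6.07 FPKM in KO-labelled and 11.8 ± 0.625 FPKM in WT libraries, and Cd14 45.8 ± 2.64 FPKM in KO-labelled and 292 ± 5.68 FPKM in WT libraries (SD, n = 3 each). The summed level of the 10 markers was 1350 to 1396 FPKM in KO-labelled and 2297 to 2347 FPKM in WT libraries. No marker of fibroblasts, B cells, neutrophils or dendritic cells reached a mean of 1 FPKM over the 6 libraries. The B cell marker Cd79b had 1.77, 1.42 and 1.42 FPKM in KO-labelled libraries and 0.425, 0.202 and 0.0628 FPKM in WT libraries, and the other 4 B cell markers were each below 0.4 FPKM in every library. The neutrophil marker S100a8 had 0.655, 1.24 and 0.301 FPKM in KO-labelled libraries and 0.0675, 0 and 0 FPKM in WT libraries, with Ly6g and S100a9 at 0 in all 6. The T cell kinase gene Lck averaged 0.771 ± 0.176 FPKM in KO-labelled and 1.79 ± 0.194 FPKM in WT libraries (limma adjusted p = 0.00248), while the T cell markers Cd3e, Cd3g and Cd8a were at 0 in all 6 libraries. The part of these marker differences in the results below was not tested.

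More Zfp genes rose than fell in the KO-labelled libraries. A gene is said to have risen or fallen when its Benjamini-Hochberg adjusted p from limma, taken over all 10843 genes, was under 0.05. By this rule 70 of the 212 Zfp genes (33%) were higher in KO-labelled libraries, beside 30.6% of all tested genes, and 22 (10.4%) were lower, beside 30.2% of all tested genes. The other 120 did not pass. In these bulk libraries, a change in the share of cells that express a gene and a change in its RNA per cell cannot be told apart. In all, 43.4% of the Zfp genes passed in either direction, beside 60.8% of all tested genes. The 3 KO-labelled and 3 WT values did not overlap for 112 Zfp genes (52.8%), beside 67.4% of all tested genes. The share of Zfp genes that rose was near that of all tested genes, and the share that fell was below it.

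The median log2 difference of the 212 genes was 0.11, beside 0.01 for all tested genes, and 135 of the 212 had a difference above 0, beside 50.6% of all tested genes. Zfp genes are expressed at lower levels than most genes tested, with a median mean level of 3.25 FPKM beside 8.77 FPKM. Among genes below 3 FPKM, 43.3% of 97 Zfp genes passed the test, beside 51.8% of all tested genes of that level. At 3 FPKM or more the shares were 43.5% of 115 Zfp genes and 63.1% of all tested genes. Summed over the 212 genes, the level was 1119, 1133 and 1129 FPKM in the KO-labelled libraries, against 939, 950 and 963 FPKM in the WT libraries, and the groups did not overlap. Rescaling every library to TPM, which gives each library the same total, gave 88 higher and 15 lower, and quantile normalization gave 60 higher and 27 lower.

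**Figure D1:**
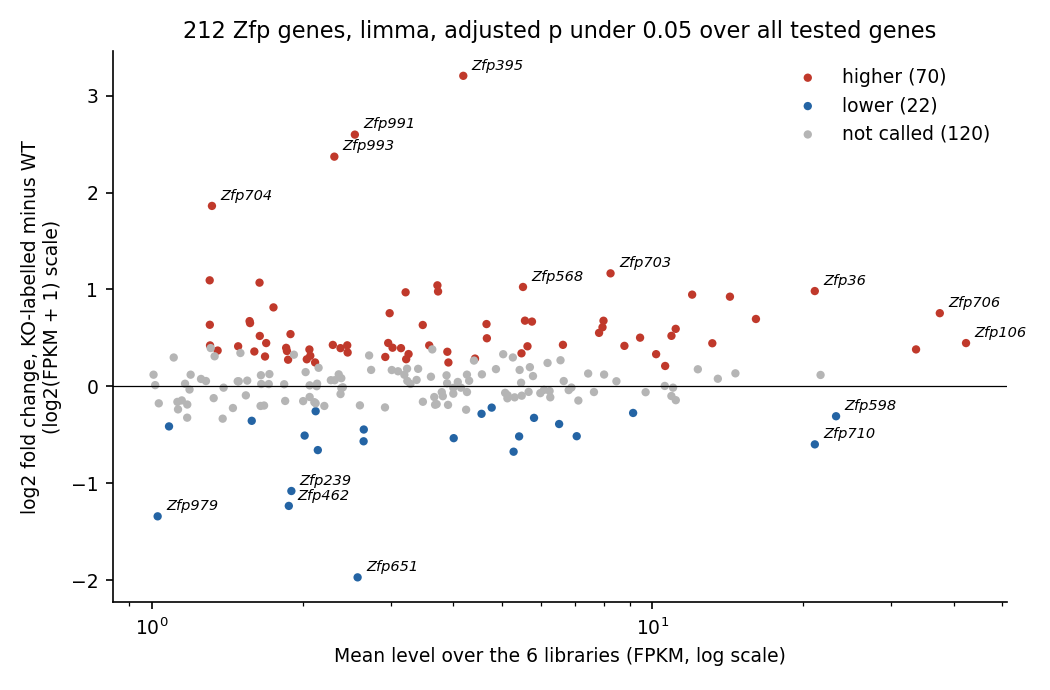
The log2 difference between the KO-labelled and WT libraries on the log2(FPKM + 1) scale (vertical axis) is plotted against the mean FPKM of the 6 libraries on a log axis (horizontal) for the 212 Zfp genes, 1 point a gene. Red points mark the 70 genes that rose, blue points the 22 that fell and grey points the 120 that did not pass. The largest differences, those of Zfp395, Zfp991, Zfp993, Zfp704 and Zfp651, belong to genes with means below 5 FPKM.

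The start regions of 5 of the Zfp genes described below are printed to show how unlike they are in CG content and sequence. Zfp53, Zfp948 and Zfp65 rose, and Zfp979 and Zfp239 fell. The sequences are from RefSeq (GRCm38.p6) and give the 250 bases before the annotated start, 5′ to 3′ on the strand of the gene, with each CG dinucleotide in capitals. They lie at chr17:21488738-21488987 (+) for Zfp53, chr17:21566728-21566977 (+) for Zfp948, chr13:67729174-67729423 (-) for Zfp65, chr4:147642509-147642758 (-) for Zfp979 and chr6:117861774-117862023 (+) for Zfp239.
Zfp53: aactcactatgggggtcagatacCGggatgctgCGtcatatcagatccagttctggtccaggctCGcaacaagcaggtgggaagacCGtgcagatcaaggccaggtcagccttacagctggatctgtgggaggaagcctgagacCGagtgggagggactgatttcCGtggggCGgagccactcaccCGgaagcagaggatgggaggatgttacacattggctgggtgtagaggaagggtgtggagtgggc
Zfp948: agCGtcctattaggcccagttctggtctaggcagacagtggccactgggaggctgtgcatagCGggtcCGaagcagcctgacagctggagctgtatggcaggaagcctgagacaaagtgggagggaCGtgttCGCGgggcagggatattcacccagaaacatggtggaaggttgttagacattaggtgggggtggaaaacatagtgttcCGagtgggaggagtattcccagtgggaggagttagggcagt
Zfp65: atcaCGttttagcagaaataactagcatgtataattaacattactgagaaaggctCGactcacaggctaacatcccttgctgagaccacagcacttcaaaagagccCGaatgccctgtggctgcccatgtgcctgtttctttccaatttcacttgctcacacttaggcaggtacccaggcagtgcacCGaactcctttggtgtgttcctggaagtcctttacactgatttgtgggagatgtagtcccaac
Zfp979: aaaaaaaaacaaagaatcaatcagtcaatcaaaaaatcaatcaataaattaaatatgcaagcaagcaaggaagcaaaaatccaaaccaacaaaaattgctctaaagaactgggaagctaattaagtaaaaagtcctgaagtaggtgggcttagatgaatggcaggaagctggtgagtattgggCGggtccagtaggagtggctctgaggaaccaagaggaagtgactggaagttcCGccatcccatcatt
Zfp239: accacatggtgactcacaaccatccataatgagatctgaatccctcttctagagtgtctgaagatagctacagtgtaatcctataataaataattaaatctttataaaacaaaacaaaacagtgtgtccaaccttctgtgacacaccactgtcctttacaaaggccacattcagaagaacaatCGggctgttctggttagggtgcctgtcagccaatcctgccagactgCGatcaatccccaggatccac

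The 250 bases held 8 CG dinucleotides in Zfp53, 7 in Zfp948, 4 in Zfp65, and 2 each in Zfp979 and Zfp239. Zfp53 and Zfp948, from the same cluster on chromosome 17, were identical at 59.9% of aligned columns over the 300 bases that run 50 past the start. Over the same 300 bases, the other pairs among the 5 were identical at 47.1% to 50.7%. A RefSeq start within 1000 bases of the GENCODE start was found for 166 of the 212 genes. In the 300 bases from 250 before to 50 after that start, these 166 held a median of 16 CG dinucleotides, beside 7 for all 27025 genes with such a window. The median was 12 for the 89 genes with a predicted KRAB box and 21 for the 77 others. It was 15 for the 50 genes that rose, 19 for the 19 that fell and 16 for the 97 that did not pass, so the CG content of these groups lay close together. The letters GGGCGG, the core of the GC box bound by Sp1, were found on either strand in 48.8% of the 166 windows and 35.9% of all windows, and each such match also holds a counted CG. The letters TATAAA, a form of the TATA box, were found on either strand in 6.02% of the 166 windows and 14.2% of all windows. Such matches are descriptions of the letters in the window. The 27025 genes were not limited to expressed or protein-coding genes, and the first listed window of each was used. They are thus unlike the 166 in more than the gene symbol.

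Among the genes that rose most, 4 were at or next to 0 in WT libraries. These 4 reached the 1 FPKM limit through the KO-labelled libraries. Zfp395 (ENSMUSG00000034522, chr14:65358389-65398930, + strand in mm10), whose human counterpart binds the huntingtin promoter, had 7.38, 8.94 and 8.78 FPKM in KO-labelled libraries, against 0.0396, 0 and 0 FPKM in WT libraries. The values rested on 2550 fragments in the KO-labelled libraries and 4 in WT, and the groups did not overlap. Its log2 difference of 3.20 ± 0.10 (SE, limma adjusted p = 3.57e-07) was the largest of the 212.

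Zfp991, a KRAB gene on chromosome 4 (chr4:147132038-147180579), had 5.43, 5.62 and 4.21 FPKM in KO-labelled libraries and no fragment in the 3 WT libraries. Zfp993, which lies in the same array at chr4:146610961-146658160, had 2.20, 3.94 and 7.75 FPKM in KO-labelled libraries and no fragment in WT. Zfp704 (chr3:9427020-9610085) had 2.59, 2.73 and 2.58 FPKM in KO-labelled libraries and none in WT. For all 3 genes every KO-labelled library was above every WT library, and Zfp993 varied most between the KO-labelled libraries. With the WT libraries set at 3 fragments each, the mean level was at least 106-fold higher in KO-labelled libraries for Zfp991, at least 42.2-fold higher for Zfp993 and at least 287-fold higher for Zfp704. The limma adjusted p was 2.59e-06 for Zfp991, 0.000755 for Zfp993 and 5.16e-06 for Zfp704. Genes at 0 in all libraries of one group and expressed in the other made up 1.46% of all tested genes. All 3 genes have a near-identical copy in the annotation, such as Zfp992 for Zfp991, matched over most of the shorter transcript. The split of fragments between copies is thus uncertain.

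Next in size of increase came Zfp703, Zfp213, Zfp467, Zfp516 and Zfp568. Zfp703, a transcriptional corepressor known from breast cancer, had 14.6, 12.6 and 8.43 FPKM in KO-labelled libraries, against 5.20, 4.49 and 4.18 FPKM in WT libraries (log2 difference 1.17 ± 0.18 SE, limma adjusted p = 0.00128). Zfp516, an activator of brown fat genes, had 5.15, 5.87 and 5.05 FPKM in KO-labelled libraries and 1.92, 2.16 and 2.17 FPKM in WT libraries (1.04 ± 0.08, adjusted p = 3.63e-05). Zfp467, which promotes fat cell formation, had 3.22, 2.58 and 1.93 FPKM in KO-labelled libraries and 0.770, 0.986 and 0.359 FPKM in WT libraries (1.07 ± 0.19, adjusted p = 0.00233). None of these groups of 3 overlapped. Zfp213, for which no role is given here, had 2.31, 2.19 and 1.91 FPKM in KO-labelled libraries and 0.558, 0.538 and 0.318 FPKM in WT libraries (1.09 ± 0.12, adjusted p = 0.000179). Its exons overlap those of another expressed gene over 10.1% of their length. Zfp213 and Zfp467 were below 1 FPKM in every WT library and reached the limit through the KO-labelled libraries.

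The largest decreases were in 4 genes. All 4 were below 1 FPKM in every KO-labelled library and reached the limit through the WT libraries. Zfp651 (chr9:121759330-121771742) had 0.440, 0.582 and 0.348 FPKM in KO-labelled libraries, against 4.83, 4.53 and 4.73 FPKM in WT libraries, and its log2 difference was -1.97 ± 0.09 (SE, limma adjusted p = 3.22e-06). Zfp979, a KRAB gene of the chromosome 4 array, had 0.175, 0.0865 and 0.165 FPKM in KO-labelled libraries and 2.40, 1.75 and 1.58 FPKM in WT libraries (-1.34 ± 0.14, adjusted p = 0.000155). Zfp462, a chromatin regulator needed in neural development, had 0.860, 0.603 and 0.688 FPKM in KO-labelled libraries and 3.42, 2.78 and 2.90 FPKM in WT libraries (-1.23 ± 0.11, adjusted p = 6.55e-05). Of the 212 genes only Zfp142, with 37, has more than its 34 predicted C2H2 fingers. Zfp239 had 0.886, 0.722 and 0.982 FPKM in KO-labelled libraries and 3.27, 2.72 and 2.82 FPKM in WT libraries (-1.08 ± 0.10, adjusted p = 0.000102). In each of the 4 genes all KO-labelled libraries were below all WT libraries. Zfp979 has near-identical copies, Zfp600 and Zfp978 among them.

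Beyond these, the 10 largest decreases took in Zfp800, Zfp827, Zfp710, Zfp318, Zfp428 and Zfp367, with log2 differences of -0.67 to -0.52. Zfp710 was the most abundant of them, with 17.5, 15.9 and 16.4 FPKM in KO-labelled libraries and 26.0, 25.8 and 25.1 FPKM in WT libraries (-0.60 ± 0.05, limma adjusted p = 6.37e-05). Zfp428 had the widest spread, with 3.10, 4.12 and 2.16 FPKM in KO-labelled libraries and 4.22, 5.79 and 4.67 FPKM in WT libraries, and its call was lost in at least 1 alternative analysis. In all, 13 of the 212 genes passed the test with a difference of at least 1 on the log2 scale, 9 higher and 4 lower. Among all tested genes 1465 of 10843 (13.5%) did so, a larger share than among the Zfp genes.

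**Figure D2:**
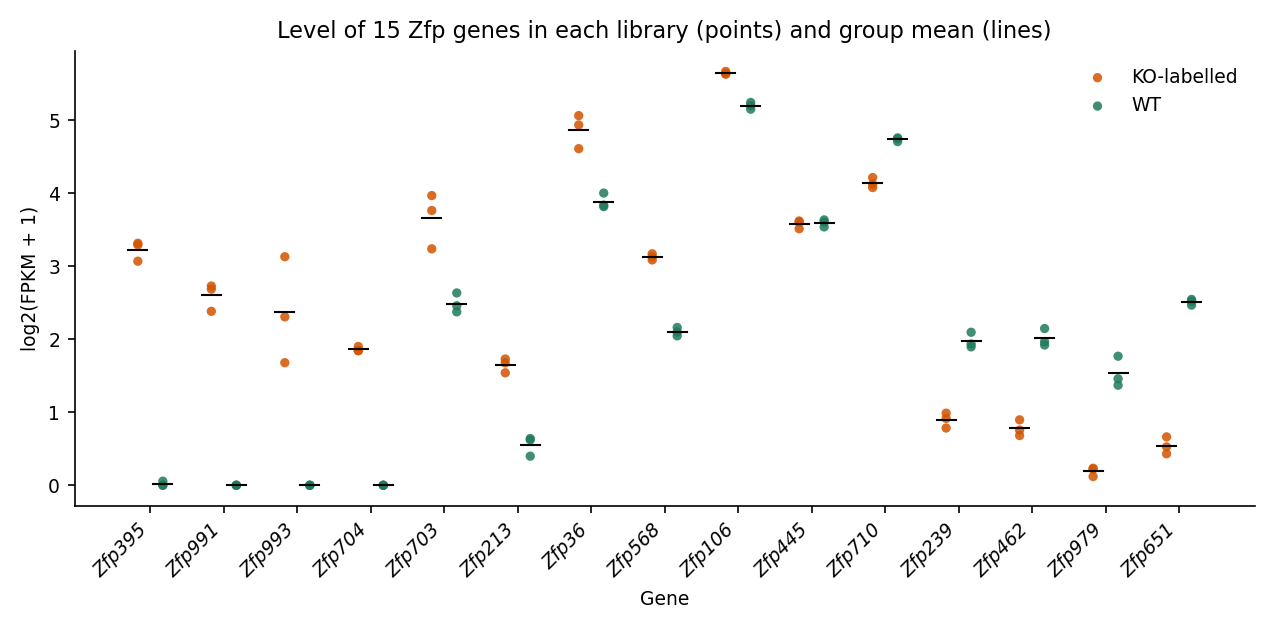
The level of 15 Zfp genes as log2(FPKM + 1) (vertical axis) is shown for each KO-labelled library (orange points, left of each pair) and each WT library (green points, right), with short lines at the group means. Zfp395, Zfp991, Zfp993 and Zfp704 sit at or next to 0 in WT, Zfp445 is level between the groups, and Zfp651, Zfp979, Zfp462 and Zfp239 are lower in every KO-labelled library.

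Of the 8 Zfp genes with the highest levels, 5 rose and 2 fell, beside 30.6% and 30.2% of all tested genes. Only 1 did not pass. Zfp106, an RNA-binding protein that mice need to keep motor neurons, was the highest, with 48.8, 48.4 and 49.7 FPKM in KO-labelled libraries and 36.8, 34.5 and 35.7 FPKM in WT libraries (log2 difference 0.45 ± 0.04 SE, limma adjusted p = 0.000104). Zfp706, a small protein that acts on stem cell self-renewal, had 46.0, 47.9 and 48.2 FPKM in KO-labelled libraries and 27.0, 28.0 and 28.0 FPKM in WT libraries (0.76 ± 0.04, adjusted p = 7.04e-06). Zfp207, a spindle assembly factor that binds Bub3, had 34.8, 38.9 and 40.9 FPKM in KO-labelled libraries and 29.8, 28.6 and 28.8 FPKM in WT libraries (0.38 ± 0.06, adjusted p = 0.00188). The groups did not overlap for any of the 3. Zfp740 had 20.1 ± 0.259 FPKM in KO-labelled and 12.1 ± 0.752 FPKM in WT libraries (SD, n = 3 each, limma adjusted p = 4.59e-05). Zfp91, a ubiquitin ligase of the non-canonical NF-kB route, had 22.6, 23.0 and 22.2 FPKM in KO-labelled libraries and 20.3, 20.1 and 21.9 FPKM in WT libraries, and did not pass (0.12 ± 0.05, adjusted p = 0.0758).

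The gene lists used from here on were chosen with earlier results of these data known, so their counts and medians are descriptions. Of 11 tested genes listed for roles in RNA and ribosome biology, 6 rose and 1 fell, beside 30.6% higher and 30.2% lower among all tested genes, while 4 missed the threshold. Their median log2 difference was 0.33 beside 0.01 for all tested genes. Zfp36 (tristetraprolin), which binds AU-rich elements and speeds the decay of mRNAs such as that of TNF, had 32.4, 29.6 and 23.4 FPKM in KO-labelled libraries, against 13.1, 15.005 and 13.3 FPKM in WT libraries (0.98 ± 0.12 SE, limma adjusted p = 0.000361). All KO-labelled values of Zfp36 were above all WT values. Its fingers are of the CCCH type, and it is 1 of 5 members in which no C2H2 finger was found. Zfp346, which binds double-stranded RNA, averaged 15.4 ± 1.69 FPKM in KO-labelled and 10.98 ± 0.575 FPKM in WT libraries (adjusted p = 0.00313). Zfp622, which acts in maturation of the large ribosomal subunit, averaged 11.5 ± 0.799 FPKM in KO-labelled and 8.89 ± 0.762 FPKM in WT libraries (adjusted p = 0.00827). Zfp598, the ubiquitin ligase that marks collided ribosomes, was the gene that fell, with 19.9, 22.4 and 19.8 FPKM in KO-labelled libraries and 26.4, 24.9 and 26.2 FPKM in WT libraries (-0.31 ± 0.06, adjusted p = 0.00389). Zfp638, which in human cells helps to silence retroviral DNA that is not integrated, had 6.45, 7.09 and 7.02 FPKM in KO-labelled libraries and 7.54, 6.46 and 6.78 FPKM in WT libraries, and the groups overlapped (-0.01 ± 0.07, adjusted p = 0.899). Zfp326, Zfp830 and Zfp131 did not pass either. The count of 6 includes Zfp385a, whose symbol ends in a letter and which is not among the 212 genes. It also includes Zfp207, described above as a spindle assembly factor.

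Of 15 genes listed for roles in chromatin and transcription, 9 rose and 2 fell, while 4 missed the threshold. The shares of all tested genes were again 30.6% higher and 30.2% lower, and the median log2 difference of the 15 was 0.34 beside 0.01. Zfp609, a partner of the cohesin loader Nipbl, had 20.9, 18.1 and 18.1 FPKM in KO-labelled libraries and 8.72, 9.82 and 10.1 FPKM in WT libraries (0.93 ± 0.08 SE, limma adjusted p = 6.37e-05). Zfp217, which works with the CoREST repressor complex, had 13.9, 12.97 and 13.9 FPKM in KO-labelled libraries and 8.33, 9.42 and 8.28 FPKM in WT libraries (0.59 ± 0.07, adjusted p = 0.000218). The groups did not overlap for either gene. Zfp384, Zfp281, Zfp148, Zfp592 and Zfp451 rose by 0.52, 0.43, 0.42, 0.34 and 0.25 on the log2 scale. Zfp410, known as an activator of the remodeller gene Chd4, fell, with 2.09, 1.92 and 2.27 FPKM in KO-labelled libraries and 3.17, 3.21 and 3.23 FPKM in WT libraries (-0.44 ± 0.08, adjusted p = 0.00209). Chd4 itself averaged 49.0 ± 1.26 FPKM in KO-labelled and 52.4 ± 1.09 FPKM in WT libraries and did not pass (adjusted p = 0.0833). Zfp687 fell (-0.39 ± 0.09, adjusted p = 0.01), while Zfp592, its partner in one complex, was among those that rose. Zfp143, which acts at promoters and in chromatin looping, had 6.24, 6.49 and 5.61 FPKM in KO-labelled libraries and 6.41, 5.94 and 6.70 FPKM in WT libraries (-0.05 ± 0.07, adjusted p = 0.6). Zfp644, Zfp277 and Zfp219 did not pass either.

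Among 10 listed genes with known roles in retroelement silencing or imprinting, 6 were tested, of which 1 rose, 1 fell and 4 did not pass. By comparison, 30.6% of all tested genes rose and 30.2% fell. Zfp568, a KRAB protein that silences a placental transcript of Igf2, had 7.99, 7.73 and 7.48 FPKM in KO-labelled libraries, against 3.47, 3.28 and 3.13 FPKM in WT libraries (1.03 ± 0.06 SE, limma adjusted p = 1.06e-05). The 2 groups stood well apart. Zfp961 fell, with 3.72, 4.08 and 4.24 FPKM in KO-labelled libraries and 5.28, 4.66 and 5.36 FPKM in WT libraries (-0.28 ± 0.08, adjusted p = 0.0164), a call lost in at least 1 alternative analysis. Zfp445, which keeps imprints, had 10.4, 11.1 and 11.3 FPKM in KO-labelled libraries and 11.1, 10.6 and 11.4 FPKM in WT libraries (-0.01 ± 0.06, adjusted p = 0.856). Zfp809, which directs silencing of murine leukaemia virus DNA, had 6.21, 6.88 and 7.31 FPKM in KO-labelled libraries and 6.80, 6.69 and 6.01 FPKM in WT libraries (0.06 ± 0.08, adjusted p = 0.562). The groups of both genes overlapped. Zfp932 and Zfp787 did not pass either, and Zfp57, Zfp42 and Zfp708 had no fragment in any library.

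Of 8 tested genes listed for immune or fat cell roles, Zfp703, Zfp467 and Zfp407 rose, Zfp318 fell and 4 did not pass. Among all tested genes, 30.6% were higher and 30.2% lower. The list takes in Zfp703, described above as a corepressor, while Zfp516, an activator of brown fat genes, is listed under chromatin and transcription. The counts by role depend on this sorting. Zfp318, needed for the IgD splice form in B cells, had 1.68, 2.14 and 2.01 FPKM in KO-labelled libraries and 3.40, 3.37 and 3.28 FPKM in WT libraries (-0.57 ± 0.09 SE, limma adjusted p = 0.00117). No KO-labelled value of Zfp318 reached a WT value. Zfp335, needed for T cell maturation, averaged 7.46 ± 0.268 FPKM in KO-labelled and 7.82 ± 0.736 FPKM in WT libraries and did not pass (adjusted p = 0.525), nor did Zfp746 and Zfp69. Zfp423 and Zfp521, regulators of fat and blood cell lineages, had no fragment in any library.

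The predicted proteins were split by a KRAB box, found with a sequence profile in 109 of the 212 genes. Of these 109, 39 (35.8%) rose, 4 (3.67%) fell and 66 missed the threshold, and their median log2 difference was 0.17. Of the 103 genes without one, 31 (30.1%) rose, 18 (17.5%) fell and 54 missed it, and the median was 0.04. Among all tested genes, 30.6% rose, 30.2% fell and the median was 0.01. KRAB genes outside the position clusters described below had a median of 0.04, and those within them 0.18. Zfp979, Zfp788, Zfp383 and Zfp961 were the 4 KRAB genes that fell. KRAB genes had a median of 11 predicted fingers and a median level of 2.36 FPKM, against 7 fingers and 4.42 FPKM for the others. The summed level of the KRAB genes was 353, 370 and 384 FPKM in the KO-labelled libraries and 297, 294 and 304 FPKM in the WT libraries. The groups did not overlap in this sum. Quantile normalization gave 30 KRAB genes higher and 8 lower, and put the median of the genes without a KRAB box at -0.02. With TPM, 38 of the genes without a KRAB box were higher and 12 lower. Testing all genes without the 1 FPKM limit left 24 KRAB genes higher. Without WT library 1, 2 KRAB genes were lower, and without KO-labelled library 2 the number was 7. Without WT library 3, 11 of the other genes were lower. The difference between the 2 classes was not tested.

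**Figure D3:**
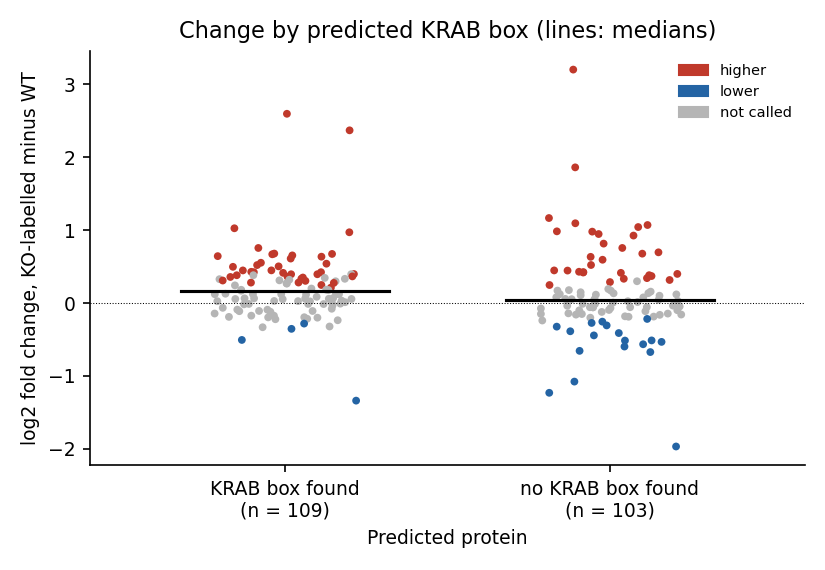
The log2 difference between the KO-labelled and WT libraries on the log2(FPKM + 1) scale (vertical axis) is shown for the 109 genes with a predicted KRAB box (left) and the 103 without (right), 1 point a gene, with red for higher, blue for lower and grey for genes that did not pass. Black lines at the medians stand at 0.17 and 0.04, and few blue points, 4 of 109, lie in the KRAB column.

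The genes through which KRAB proteins act moved in both directions. Of 29 tested cofactor genes, 13 rose and 4 fell, beside 30.6% and 30.2% of all tested genes, while 12 missed the threshold. Their median log2 difference was 0.11, beside 0.01 for all tested genes. Trim28, the corepressor that KRAB boxes bind, had 121, 121 and 119 FPKM in KO-labelled libraries and 107, 113 and 105 FPKM in WT libraries (0.15 ± 0.04 SE, limma adjusted p = 0.0145). Setdb1, which writes H3K9 methylation at Trim28 sites, averaged 22.1 ± 0.242 FPKM in KO-labelled and 18.3 ± 0.411 FPKM in WT libraries (adjusted p = 0.00172). Both genes were higher in every KO-labelled library than in any WT library. Resf1, a partner of Setdb1, had 9.59, 9.03 and 9.90 FPKM in KO-labelled libraries and 4.68, 4.31 and 4.22 FPKM in WT libraries (0.96 ± 0.06, adjusted p = 1.65e-05). The de novo DNA methyltransferase genes went opposite ways. Dnmt3b had 4.44, 3.08 and 3.41 FPKM in KO-labelled libraries and 1.15, 0.982 and 0.915 FPKM in WT libraries (1.20 ± 0.13, adjusted p = 0.000171), while Dnmt3a had 6.38, 6.39 and 5.91 FPKM in KO-labelled libraries and 13.7, 12.8 and 13.7 FPKM in WT libraries (-0.996 ± 0.06, adjusted p = 8.03e-06). The histone deacetylase genes of the NuRD complex did so too, with Hdac1 at 39.2 ± 0.0474 FPKM in KO-labelled and 26.1 ± 0.912 FPKM in WT libraries, and Hdac2 at 26.0 ± 1.22 FPKM in KO-labelled and 36.4 ± 1.96 FPKM in WT libraries. Mphosph8, a subunit of the HUSH silencing complex, and the demethylase gene Kdm1a fell as well, by 0.39 and 0.43 on the log2 scale.

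By position, Zfp genes formed 16 clusters, defined from the annotation as runs of at least 5 annotated Zfp genes whose starts lie at most 500 kb apart. The clusters hold 169 annotated and 98 tested Zfp genes. Of these 98, 35 rose (35.7%), 5 fell (5.1%) and 58 missed the threshold, and their median log2 difference was 0.13. All tested genes gave 30.6% higher, 30.2% lower and a median of 0.01. Outside clusters, 35 of 114 rose, 17 fell and 62 missed it, and the median was 0.04. Within clusters, 29 of 73 KRAB genes rose and 2 fell, with a median log2 difference of 0.18. Outside clusters, 10 of 36 KRAB genes rose and 2 fell, with a median of 0.04. These counts are descriptions, since neighbouring genes and the KRAB class overlap.

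The cluster with most tested genes, on chromosome 17 between 21008903 and 23599487, held 13, of which 7 rose and none fell. Of all tested genes, 30.6% rose and 30.2% fell. By limma with Benjamini-Hochberg adjustment, all 13 differences were above 0, with a median of 0.39 on the log2 scale, beside -0.01 for all 546 tested genes of chromosome 17. Zfp53 had 5.502, 6.23 and 5.98 FPKM in KO-labelled libraries and 3.41, 3.29 and 3.56 FPKM in WT libraries (0.64 ± 0.07 SE, limma adjusted p = 0.000185). Zfp948 had 6.29, 8.45 and 6.56 FPKM in KO-labelled libraries and 3.76, 4.16 and 4.17 FPKM in WT libraries (0.68 ± 0.11, adjusted p = 0.00141). Zfp995 had 1.73, 2.20 and 2.56 FPKM in KO-labelled libraries and 0.990, 0.974 and 0.950 FPKM in WT libraries (0.67 ± 0.12, adjusted p = 0.00223). The groups did not overlap for these 3 KRAB genes. Zfp994, Zfp758 and Zfp942 rose by 0.54, 0.45 and 0.39, and Zfp213 lies at the far end of the same run. Zfp51, Zfp54 and Zfp52 had differences of 0.38, 0.34 and 0.27 and did not pass, and Zfp51 varied most, with 5.98, 3.81 and 3.11 FPKM in KO-labelled libraries and 2.84, 3.22 and 2.84 FPKM in WT libraries. Zfp160, Zfp944 and Zfp946 differed by 0.08 to 0.12. Leaving out any 1 library left 5 to 7 genes higher and none lower.

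On chromosome 7 between 29768552 and 30169750, 10 genes were tested, of which 4 rose, 1 fell and 5 did not pass. The shares of all tested genes were 30.6% higher and 30.2% lower. Zfp568, described above, rose most. Zfp84 had 3.30, 4.14 and 3.30 FPKM in KO-labelled libraries and 2.38, 2.60 and 2.07 FPKM in WT libraries (0.45 ± 0.10 SE, limma adjusted p = 0.00854). Zfp383, which lies between genes that rose, had 1.39, 1.20 and 1.21 FPKM in KO-labelled libraries and 1.79, 1.97 and 1.93 FPKM in WT libraries (-0.35 ± 0.09, adjusted p = 0.0114). Neither gene's groups overlapped. Zfp27 and Zfp74 rose by 0.25 and 0.36, calls that some alternatives did not keep, and without KO-labelled library 2, WT library 1 or WT library 3 the number that rose in this cluster was 2. Zfp566, Zfp260, Zfp382 and Zfp146, the last 4 genes of the run, differed by 0.03 to 0.08 and did not pass.

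The tested genes of the cluster on chromosome 17 between 32765496 and 33631779 moved little, while 30.6% of all tested genes rose and 30.2% fell. Of its 9 tested genes only Zfp799 rose, with 2.00, 2.20 and 2.13 FPKM in KO-labelled libraries and 1.25, 0.952 and 1.32 FPKM in WT libraries (0.52 ± 0.10 SE, limma adjusted p = 0.00376), and none fell. The other 8 were Zfp871, Zfp952, Zfp763, Zfp101, Zfp81, Zfp563, Zfp414 and Zfp472, with differences of -0.09 to 0.24 on the log2 scale. Zfp81 had 1.87, 2.24 and 2.31 FPKM in KO-labelled libraries and 2.02, 2.04 and 2.33 FPKM in WT libraries (0.00 ± 0.09, adjusted p = 0.986), and the groups overlapped. Below the 1 FPKM limit, Zfp811 was higher (0.63 ± 0.13 SE, limma adjusted p = 0.0122) and Zfp870 lower (-0.46 ± 0.12, adjusted p = 0.0258). These values come from the fit without the limit, and Zfp811 and Zfp870 were chosen after their values were seen.

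Genes named from the clusters on chromosomes 13 and 4 and from the cluster near 127 Mb of chromosome 7 were partly chosen after their values were seen. On chromosome 13 between 67038596 and 67827002, 6 of 7 tested genes rose and none fell, with a median log2 difference of 0.38, beside 0.01 for all 404 tested genes of the chromosome. Zfp65 rose most, with 4.46, 4.36 and 4.91 FPKM in KO-labelled libraries and 1.68, 1.71 and 2.15 FPKM in WT libraries (0.97 ± 0.09 SE, limma adjusted p = 0.000103). Zfp85 had 1.75, 1.79 and 1.86 FPKM in KO-labelled libraries and 0.695, 0.654 and 1.09 FPKM in WT libraries (0.64 ± 0.12, adjusted p = 0.00315). The groups were apart for both genes. Zfp429, Zfp953, Zfp87 and Zfp748 rose by 0.65, 0.38, 0.33 and 0.28, with adjusted p-values of 0.0275, 0.0283, 0.0272 and 0.0362. The count rests on few libraries, since 2 genes rose without KO-labelled library 2, 2 without KO-labelled library 3 and 3 when any one of the WT libraries was left out, against 7 without KO-labelled library 1. Zfp759 did not pass (0.31 ± 0.13, adjusted p = 0.0786). The count covers genes above the 1 FPKM limit alone. In the limma fit without the limit, Zfp459 was lower (adjusted p = 0.0273), with 1 fragment in KO-labelled and 18 in WT libraries. Zfp493, Zfp58, Zfp456 and Zfp273 were higher in that fit (adjusted p = 0.00153, 0.0266, 0.0397 and 0.000122). Of the 7 genes above the limit, 2 were higher in that fit, against 6 in the fit with the limit. With a replicate block 4 of the 7 were higher. In the cluster near 127 Mb of chromosome 7, 3 of 9 tested genes rose and none fell, beside 30.6% and 30.2% of all tested genes. The number that rose was 1 without KO-labelled library 2, WT library 2 or WT library 3, and 4 without KO-labelled library 3. Zfp553 rose most, averaging 5.28 FPKM in KO-labelled and 2.18 FPKM in WT libraries.

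**Figure D4:**
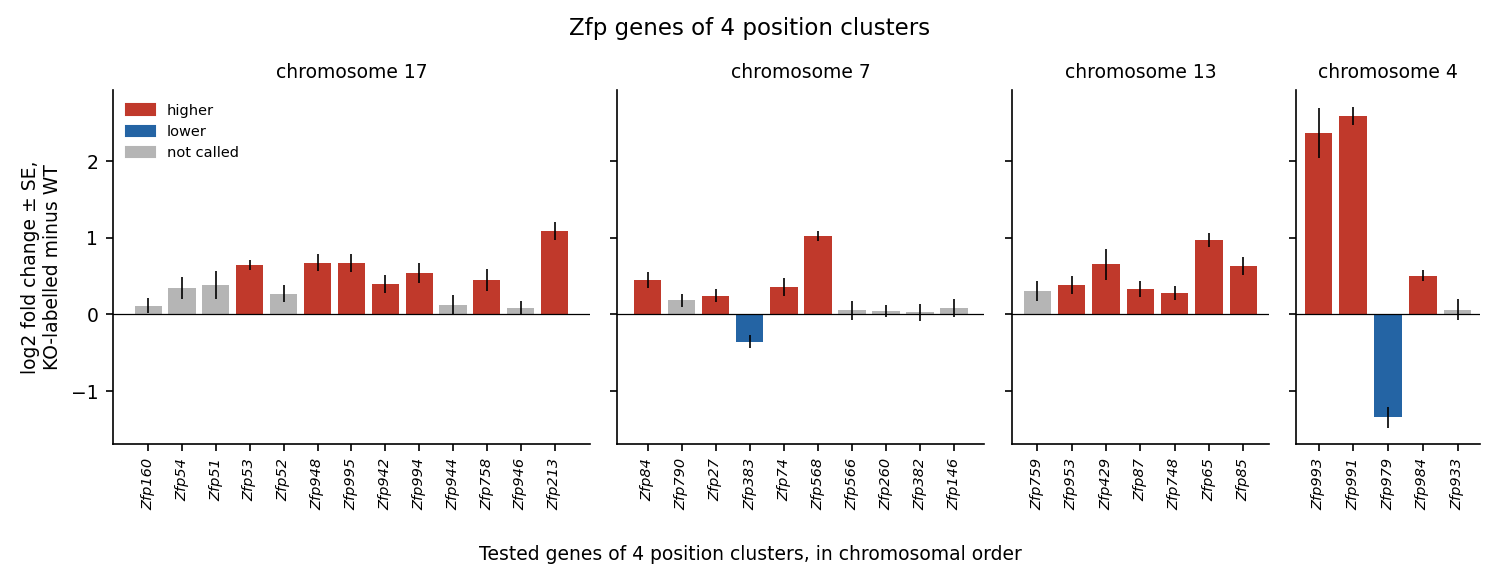
Bars give the log2 difference between the KO-labelled and WT libraries, with SE, for the tested Zfp genes of 4 position clusters in chromosomal order (red higher, blue lower, grey not passed). On chromosome 17 all 13 bars are above 0, on chromosome 13 all 7, and on chromosome 4 Zfp979 at -1.34 stands between Zfp991 at 2.60 and Zfp984 at 0.50.

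The array on chromosome 4 held neighbours that changed in opposite directions. Between 145510759 and 147848366, 18 Zfp genes are annotated, 5 were tested and 5 had no fragment in any library. Zfp993 and Zfp991 were seen in KO-labelled libraries alone, as given above. Zfp984 had 10.4, 11.9 and 11.4 FPKM in KO-labelled libraries and 8.01, 7.12 and 7.80 FPKM in WT libraries (0.50 ± 0.07 SE, limma adjusted p = 0.000788), and the groups did not overlap. Zfp933, the last gene of the array, had 2.40, 2.41 and 2.31 FPKM in KO-labelled libraries and 2.55, 1.61 and 2.62 FPKM in WT libraries and did not pass (0.06 ± 0.14, adjusted p = 0.708). Below the 1 FPKM limit, Zfp992 had 1.499, 1.84 and 1.58 FPKM in KO-labelled libraries and no fragment in WT libraries, at least 53.4-fold higher in KO-labelled libraries with 3 fragments set for each WT library. Zfp985 showed the opposite, with 0, 0 and 0.109 FPKM in KO-labelled libraries and 1.24, 0.521 and 0.641 FPKM in WT libraries. Zfp990 had 13 fragments in KO-labelled library 3 (0.194 FPKM) and none in any other library. Along the chromosome, the genes seen mainly in KO-labelled libraries (Zfp992, Zfp993 and Zfp991) come before those seen mainly in WT libraries (Zfp978, Zfp985 and Zfp979). All 6 have a near-identical copy in the annotation, so the split of fragments among the array genes is uncertain.

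**Figure D5:**
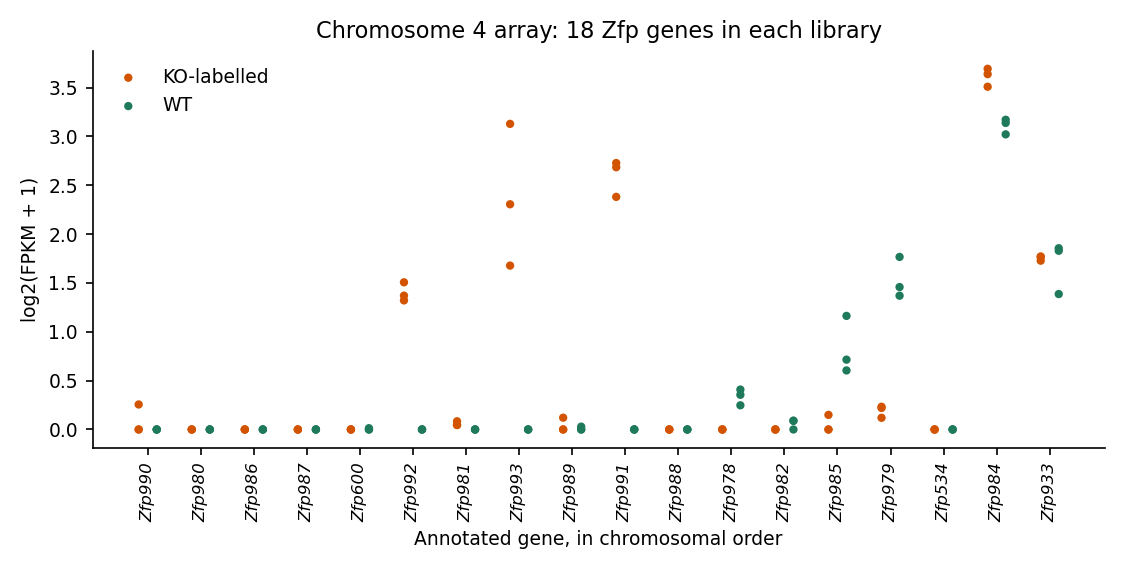
The level as log2(FPKM + 1) (vertical axis) in each KO-labelled library (orange, left of each pair) and each WT library (green, right) is shown for the 18 annotated Zfp genes of the chromosome 4 array in chromosomal order. Zfp992, Zfp993 and Zfp991 lie above 0 in every KO-labelled library and at 0 in WT. Zfp979, Zfp985 and Zfp978 are higher in every WT library than in any KO-labelled library.

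A near-identical copy, matched over most of the shorter transcript of the pair, was found for 29 of the 212 genes. A short copy can thus match a part of the gene alone. Of the 29 genes, 13 rose, 2 fell and 14 did not pass, beside 30.6% higher and 30.2% lower among all tested genes. The 183 without such a copy held 57 that rose, 20 that fell and 106 that missed the threshold. Their median log2 difference was 0.07, beside 0.28 for the 29 with a copy. Leaving out genes with a copy or with exons that overlap another expressed gene left 157 genes, of which 50 rose and 16 fell. How reads that match several copies were counted is not given in the sources used here.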

How the data were processed

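The authors deposited 1 table per library with FPKM values per Ensembl gene. Per the submitters' processing notes, HISAT2 2.0.5 and featureCounts 1.5.0-p3 were used with mm10, and the treatment of strand and of multiply mapping reads is not given in the sources used here. Per the labels' protocols, poly(A) RNA was primed with random hexamers. Of 54532 identifiers, 54495 matched GENCODE M21. The members and lists were chosen with earlier results of these data known.

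Values were tested as log2(FPKM + 1) with limma 3.58.1 (R 4.3.3, mean-variance trend, KO-labelled minus WT) over the 10843 genes whose mean reached 1 FPKM, with Benjamini-Hochberg adjustment at 0.05. Fold changes on this scale understate the change of low genes. The procedure was also run on simulated data with far fewer changed genes than were called here. That run does not give the error rate for these data. Fragment numbers were recovered as FPKM times exon length, and 97.9% to 98% of values of up to 200 fragments came out whole within 0.1. A gene at 0 was given a floor of 3 fragments per library, which covers counting error only. Near-identical copies were found with BLAST+ 2.17.0+, KRAB boxes in translated coding sequences with HMMER 3.4, and C2H2 fingers by pattern. Genes were named when among the 10 largest increases or decreases that passed without overlap of the groups, the 8 highest levels, those at 0 in 1 group, the role lists, or the 3 clusters with most tested genes. Alternatives were the pseudocount, the limit on low values, scaling, the model, a replicate block, the gene set and each library left out.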

Additional observations from a re-analysis of the deposited data

How the results depend on the processing

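The number of Zfp genes passing with at least 2-fold difference, 13 in the analysis reported, was 21 with a pseudocount of 0.1 FPKM, 22 after rescaling to TPM, 23 with voom on recovered fragments, 2 among the 67 genes of at least 5 FPKM and 8 among the 157 without copies or overlaps. At the 5 FPKM limit 24 were higher and 8 lower, fewer genes being tested. The median log2 difference of 0.11 was 0.0584 over 325 genes without a limit, 0.212 with TPM, 0.0488 after quantile normalization, 0.157 with voom and 0.0790 without copies or overlaps, and the median of all tested genes was 0.10 with TPM and -0.01 after quantile normalization; the cause of these shifts was not tested. Leaving out 1 library gave 57 to 64 higher, 15 to 21 lower, 12 to 15 with at least 2-fold difference and a median of 0.0762 to 0.127; all tested genes called numbered 5835 to 6446. A replicate block gave 63 higher and 19 lower, with 6194 of all tested genes called, and voom called 6809. The numbers are not treated as pairs, since deviations of same-numbered libraries correlated at -0.03, 0.05 and -0.03 over genes, and not every library correlated best with its own number. No named gene that passed changed sign. Medians of the genes without a KRAB box and of the 9 genes of the chromosome 17 cluster near 33 Mb were both -0.02 after quantile normalization, the first was also just below 0 (-0.000721) without WT library 1, and 42 values of named genes that passed in neither analysis changed sign. Of 84 named genes, 49 passed, and 42 of these did so under every alternative in which they were tested; Zfp27, Zfp428, Zfp451, Zfp74, Zfp758, Zfp942 and Zfp961 did not. Values near 1 FPKM rest on few fragments, which limits what can be seen there.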

Other observations

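Among the Zfp genes below the 1 FPKM limit, several were seen in one genotype alone. The genes named here were chosen after their values were seen, and p-values of genes below the limit come from the limma fit without it. The share of all genes below the limit that were seen in one genotype alone was not examined, so the counts are descriptions. Of the 153 Zfp genes below the limit, 8 were at 0 in all WT libraries and above 0 in all KO-labelled libraries. Zfp677, a KRAB gene of the chromosome 17 cluster, had 1.23, 0.992 and 2.04 FPKM in KO-labelled libraries and no fragment in WT (limma adjusted p = 0.00189). Zfp334 had 0.813, 0.836 and 0.701 FPKM in KO-labelled libraries and none in WT (adjusted p = 8.81e-05). Zfp273, in the chromosome 13 cluster, had 0.678, 0.749 and 0.853 FPKM in KO-labelled libraries and none in WT (adjusted p = 0.000122). The others were Zfp992, Zfp2, Zfp37, Zfp583 and Zfp981, of which Zfp583 and Zfp981 did not pass. At 0 in all KO-labelled libraries and above 0 in all WT libraries stood Zfp9, Zfp978 and Zfp820, each under 0.6 FPKM in every WT library.

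Within the chromosome 17 cluster that held the most tested genes, some genes below the limit were lower in KO-labelled libraries. Zfp760 had 0, 0.0724 and 0 FPKM in KO-labelled libraries and 2.02, 1.81 and 1.71 FPKM in WT libraries (log2 difference -1.47 ± 0.08 SE, limma adjusted p = 5.53e-05). Zfp983, which has a near-identical copy, had 0.305, 0.443 and 0.432 FPKM in KO-labelled libraries and 0.946, 0.919 and 0.990 FPKM in WT libraries (-0.49 ± 0.07, adjusted p = 0.00332), and Zfp820, given above, was lower too (adjusted p = 0.00424). Zfp947 of the same cluster had 1.69, 1.56 and 1.16 FPKM in KO-labelled libraries and 0.0163, 0 and 0.0938 FPKM in WT libraries (1.25 ± 0.10, adjusted p = 0.000298). These groups did not overlap. The 13 differences above 0 in that cluster thus cover genes above the limit alone. In the chromosome 13 cluster, Rsl1, a KRAB zinc finger gene that represses male-specific liver genes and whose symbol is not of the Zfp form, had 2.43, 2.46 and 2.69 FPKM in KO-labelled libraries and 0.708, 0.674 and 0.611 FPKM in WT libraries (1.08 ± 0.09, adjusted p = 5.05e-05 in the fit with the limit). By the copy rule used here, Rsl1 and Zfp429 have transcripts that are near-identical over most of the shorter one. Zfp729b, whose symbol ends in a letter, averaged 2.40 ± 0.369 FPKM in KO-labelled and 1.63 ± 0.115 FPKM in WT libraries (SD, n = 3 each, limma adjusted p = 0.0206).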
